A study of Homo sapiens with 4 samples.

Results

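The autophagy machinery was taken as a list of 47 human genes whose products start, build, load or deliver the autophagosome. A gene counted as measured where 2 or more of the 4 arrays detected a probe annotated with its symbol, at a detection p under 0.01, which held for 44 of the 47 genes and 53 of their 72 probes. Across the whole series the same filter kept 16561 of 47320 probes and gave 10237 genes. The mimic group was A549 cells transfected with a synthetic miR-509-3p mimic, and the control group was A549 cells transfected with a negative control mimic, with 2 Illumina bead arrays in each. A549 is a single established line from a human lung adenocarcinoma, grown here in RPMI-1640 with fetal bovine serum, and RNA of both groups was collected 24 hours after transfection with Lipofectamine RNAiMAX. The comparison addressed which transcripts change in these cells when miR-509-3p is raised. Whether the arrays of a group stand for separate cultures is not in the labels, so a p-value here reflects array-to-array spread that may be technical only.

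Macroautophagy encloses cytoplasm in a double membrane and delivers it to the lysosome. The ULK1 kinase complex and the BECN1-containing class III PI3-kinase complexes start the membrane, ATG9 vesicles and ATG2 lipid transfer proteins enlarge it, and a pair of ubiquitin-like conjugation systems attach the ATG8 proteins (the LC3 and GABARAP families) to its lipids. Cargo receptors tether ubiquitinated proteins, bacteria or damaged mitochondria to the lipid-bound ATG8 proteins, and SNARE proteins then join the closed vesicle to the lysosome. In lung adenocarcinoma cells, as elsewhere, much of this flux is set on proteins by nutrient kinases, while TFEB and TFE3 set the transcription of many of the genes.

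The agent that separates the groups is the mature microRNA below, shown because its seed (bases 2 to 8, in capitals) is the part of a microRNA that pairs with target transcripts. RefSeq places the same 22 bases, 5′ to 3′, at 3 loci on the minus strand of chromosome X of GRCh38.p14, namely MIR509-1 (chrX:147260550-147260571), MIR509-2 (chrX:147258775-147258796) and MIR509-3 (chrX:147259662-147259683). No other mature human microRNA name in that table carried this seed. The labels do not print the sequence of the mimic itself, and target sites in the members' transcripts were not searched here.
hsa-miR-509-3p: uGAUUGGUacgucuguggguag

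The arrays were alike in brightness. Median probe signals were 207 on both mimic arrays and 202 and 205 on the control arrays, and 33.7% to 34.7% of probes were detected on each array. Pearson correlations of the normalized log2 values across genes, which are no replicates of each other, were 0.996 between the mimic arrays, 0.994 between the control arrays and 0.967 to 0.968 across groups. Of 9 lung epithelial markers, 6 were detected, and NAPSA and SFTPC, which mark differentiated alveolar cells, were not detected on any array. KRT18 did not meet the detection filter. The summed normalized signals of the epithelial markers, on a linear scale, were 40309 to 40983 in mimic arrays, against 51076 to 54456 in control arrays. The genes behind this sum did not move together. Log2 fold changes, mimic over control, were -0.91 for KRT7, -0.31 for KRT8 and -0.29 for CDH1, but 0.47 for MUC1, 0.19 for KRT19 and 0.01 for EPCAM. Only 1 leukocyte marker of 5 (CD14), 2 fibroblast markers of 5 (COL1A1 and THY1) and 1 endothelial marker of 5 (ESAM) were detected, while PTPRC, COL1A2, PECAM1 and VWF among others were not. Their summed signals were 2898 to 2931 in mimic and 2056 to 2352 in control arrays for the leukocyte list, 630 to 655 in mimic and 459 to 487 in control arrays for the fibroblast list, and 357 to 364 in mimic and 568 to 612 in control arrays for the endothelial list. The detected genes of these lists had log2 fold changes of 0.45 (CD14), 0.01 (COL1A1), 0.95 (THY1) and -1.11 (ESAM), so each sum follows few genes. The part of these marker differences in the results below was not tested.

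The autophagy genes moved in both directions. Of the 44 measured members, 13 rose and 8 fell with the mimic at a limma p adjusted by Benjamini-Hochberg under 0.05 over all genes (the limma adjusted p below), and 23 did not pass. Of the 8 that fell, 6 were ATG8 proteins or their conjugation enzymes, led by ATG4A (3.05-fold lower) and MAP1LC3B (2.68-fold lower). Measured were 5 ATG8 proteins and 10 conjugation enzymes, of which 3 and 5 were not called, and the enzyme ATG3 rose. The 3 largest increases were those of the cargo receptor CALCOCO2 (1.79-fold higher), the class III PI3-kinase subunit ATG14 (1.77-fold) and the phosphoinositide reader WIPI2 (1.76-fold). The members rising were 29.5% of those measured, where 20.1% of all genes rose, and those falling were 18.2%, where 17.8% of all genes fell. Altogether 47.7% of the measured members were called, beside 37.9% of all genes, so a call was common on these arrays whatever the gene. With median scaling in place of quantile normalization the split of called members was 6 higher and 7 lower, and over all genes 15.5% were then called higher and 18.6% lower. Because these are bulk arrays, fewer cells carrying a transcript and less of it in each cell cannot be told apart.

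The sizes of the changes were close to those of other genes. The median log2 fold change of the 44 members, mimic over control, was 0.0026, beside 0.040 over all genes, with 22 members above 0 and 22 below. Their median absolute log2 fold change was 0.27, beside 0.25 over all genes. The values of mimic and control arrays did not overlap for 36 of the 44 members (81.8%), beside 72.9% of all genes. Called changes of over 1.5-fold were seen for 7 of the 44 (15.9%) and of over 2-fold for 2 (4.55%), beside 18.3% and 5.81% of all genes. ATG4A changed by more, in absolute log2, than 98.7% of the genes tested, and MAP1LC3B by more than 97.9%.

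**Figure D1:**
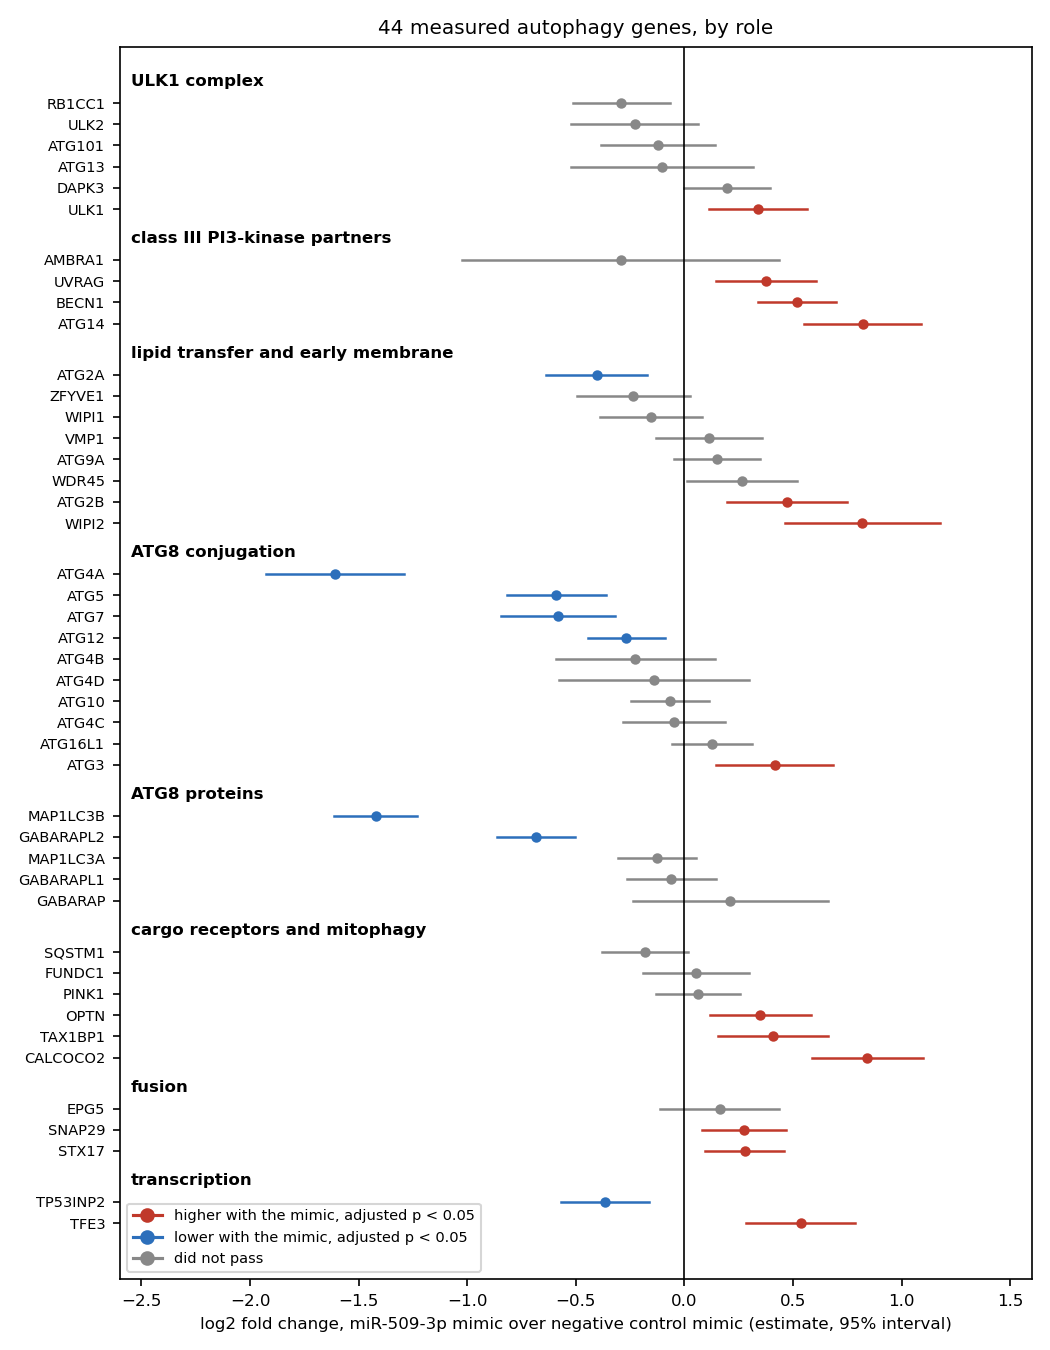
Log2 fold change of the 44 measured members, mimic over control, with 95% intervals from limma (2 arrays per group); genes run down the page by role, and colour marks those higher, lower or not called at an adjusted p under 0.05. ATG4A (-1.61) and MAP1LC3B (-1.42) lie farthest from 0, and the largest increases (CALCOCO2, ATG14, WIPI2) lie between 0.82 and 0.84.

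The ATG8 proteins are the ubiquitin-like proteins that are bound to the autophagosome membrane. Of 5 measured, 2 fell (40%, beside 17.8% of all genes) and 0 rose (beside 20.1%). The shares given by role rest on few genes each. MAP1LC3B encodes LC3B, the usual marker protein of autophagosomes. Normalized log2 signals of MAP1LC3B were 9.22 and 9.14 on the mimic arrays, against 10.60 and 10.60 on the control arrays. The 2 groups were thus separated by far more than the arrays within either, and the log2 fold change was -1.42 ± 0.07 (SE; limma adjusted p = 0.0013). MAP1LC3B was read by 1 probe, which may also read its near-identical copy MAP1LC3B2, whose own 2 probes were not detected, so the share of each is uncertain. GABARAPL2 (GATE-16), of the GABARAP branch that acts later in autophagosome closure, had log2 signals of 12.40 and 12.44 on the mimic arrays, against 13.10 and 13.11 on the control arrays. This was a 1.61-fold decrease (log2 fold change -0.68 ± 0.07, SE; limma adjusted p = 0.00367), with no overlap and little spread in either group. A dimmer GABARAPL2 probe gave -0.43 with overlapping arrays (limma adjusted p = 0.212 over probes). The other members of the family were not called: MAP1LC3A had a log2 fold change of -0.13, GABARAPL1 -0.06 and GABARAP 0.21, and the arrays of the 2 groups overlapped for GABARAPL1 and GABARAP. The 95% intervals of these 3 reached at most 0.31 below 0 and 0.66 above it, so changes of the size seen for MAP1LC3B lay outside them.

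The conjugation enzymes cut, activate and attach ATG8 proteins. Of 10 measured, 4 fell (40%, beside 17.8% of all genes) and 1 rose (10%, beside 20.1%). ATG4A, a cysteine protease that trims ATG8 proteins and prefers the GABARAP branch, had the largest decrease as reported, while MAP1LC3B had the larger one without background correction (-1.2 against -1.06 for ATG4A) and on the authors' processed values (-1.22 against -1.1). On the log2 scale its signals were 7.73 and 7.43 on the mimic arrays, against 9.20 and 9.18 on the control arrays. The highest mimic array was thus well below the lowest control array, and the log2 fold change was -1.61 ± 0.12 (SE; limma adjusted p = 0.00203). A second kept ATG4A probe gave -1.62. The other ATG4 proteases were not called, with log2 fold changes of -0.23 for ATG4B, -0.05 for ATG4C and -0.14 for ATG4D, the last detected on only 1 mimic array.

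ATG5, ATG7 and ATG12 belong to the system that joins ATG12 to ATG5, and all 3 fell. ATG5, whose ATG12 conjugate guides lipidation of ATG8 proteins, had log2 signals of 8.64 and 8.75 on the mimic arrays, against 9.22 and 9.35 on the control arrays. ATG7, the E1-like enzyme of both conjugation systems, had 10.24 and 10.02 on the mimic arrays, against 10.73 and 10.70 on the control arrays. Each fell 1.5-fold with no overlap between groups, with log2 fold changes of -0.59 ± 0.09 for ATG5 (SE; limma adjusted p = 0.00908) and -0.58 ± 0.10 for ATG7 (SE; limma adjusted p = 0.0131). ATG12 had 10.83 on both mimic arrays, against 11.10 and 11.09 on the control arrays, a smaller decrease of 1.2-fold (limma adjusted p = 0.0368). ATG3, the E2-like enzyme that passes ATG8 proteins to lipid, went the other way, with 11.98 and 11.99 on the mimic arrays, against 11.45 and 11.69 on the control arrays. Its increase was 1.33-fold (limma adjusted p = 0.0346). ATG10, the E2-like enzyme for ATG12, and ATG16L1, the membrane-binding partner of the ATG12-ATG5 conjugate, were not called, at -0.07 and 0.13 on the log2 scale. Leaving out mimic 1 ended the call of ATG5 (limma adjusted p = 0.0625), and leaving out mimic 2 or control 1 did so for ATG7 (0.0580 and 0.0525). The call of ATG3 was lost without mimic 1, mimic 2 or control 1 (limma adjusted p of 0.0817 to 0.139) and that of ATG12 without any 1 of the 4 arrays (0.0952 to 0.143).

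**Figure D2:**
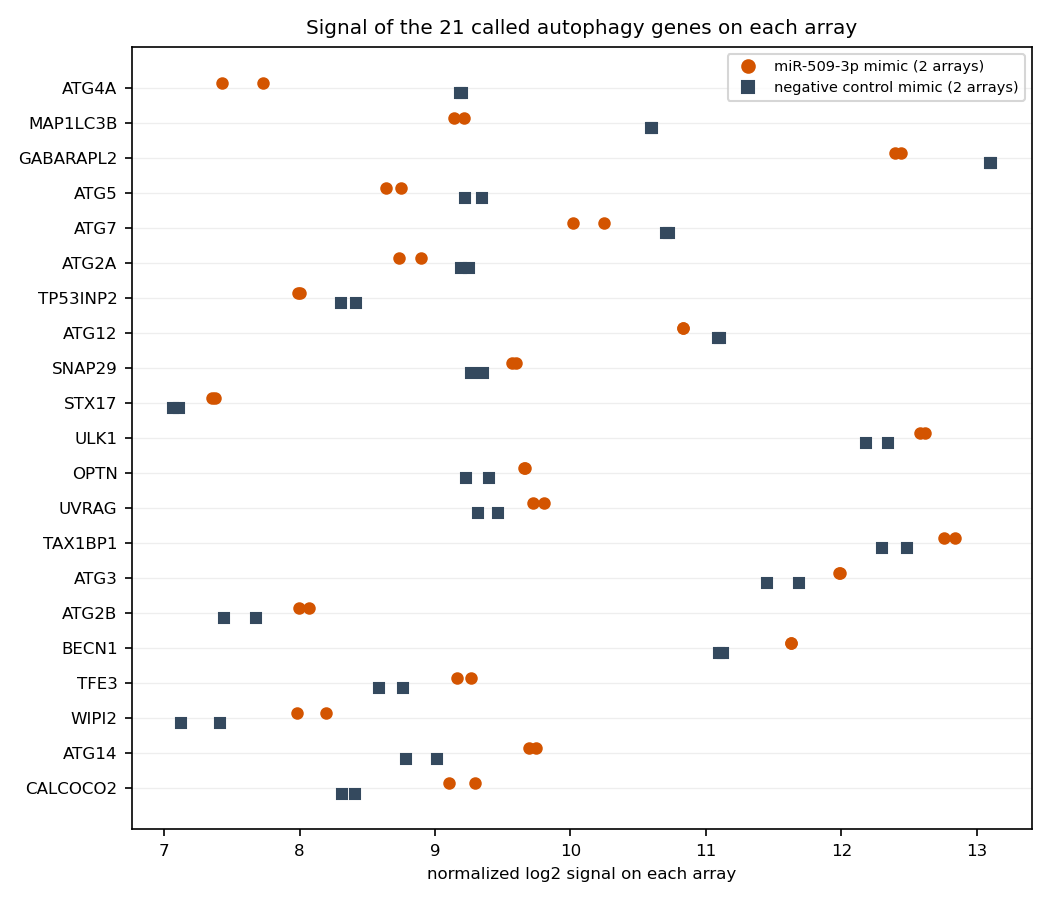
Normalized log2 signal on each of the 2 mimic arrays (circles) and 2 control arrays (squares) for the 21 called members, ordered by log2 fold change from the lowest at the top. The groups do not overlap for any of the 21, nor for 72.9% of all genes tested. The separation shrinks from ATG4A to ATG12 and from CALCOCO2 to SNAP29.

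The class III PI3-kinase makes the phosphatidylinositol 3-phosphate that marks the growing membrane. Among its 4 listed partners, 3 rose (75%, beside 20.1% of all genes) and 0 fell (beside 17.8%). ATG14 directs the kinase to the site of autophagosome formation. The ATG14 log2 signals were 9.75 and 9.70 on the mimic arrays, against 8.79 and 9.02 on the control arrays. The lowest mimic array stood above the highest control array, and the log2 fold change was 0.82 ± 0.10 (SE; limma adjusted p = 0.00602). BECN1, the scaffold of the complex, had 11.63 on both mimic arrays, against 11.13 and 11.10 on the control arrays. This 1.43-fold increase was measured with little spread within groups (log2 fold change 0.52 ± 0.07, SE; limma adjusted p = 0.00677). UVRAG, which takes the place of ATG14 in the endosomal form of the complex, had 9.72 and 9.81 on the mimic arrays, against 9.32 and 9.46 on the control arrays, a 1.30-fold increase (limma adjusted p = 0.0296). A dimmer UVRAG probe gave a log2 fold change of 0.65, beside 0.37 on the brighter one. Without mimic 1 the calls of BECN1 and ATG14 were lost (limma adjusted p = 0.0528 and 0.0506), and that of UVRAG was lost without mimic 1, mimic 2 or control 1 (0.0906 to 0.138).

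AMBRA1, which binds BECN1 and regulates the complex, had the widest spread of the list. Signals on the log2 scale were 7.20 and 6.39 on the mimic arrays, against 7.03 and 7.15 on the control arrays, and the probe was detected on only 1 mimic array. The interval of the log2 fold change, -1.02 to 0.43, spanned both directions (limma adjusted p = 0.445). Without mimic 1 it was called lower (0.0425), on a comparison that rests on a single mimic array below the detection limit. The catalytic subunit itself, PIK3C3 (VPS34), was on the list of other autophagy genes and is named here after its value was seen, because it is the enzyme that BECN1 and ATG14 bind. Its log2 signals were 9.96 and 10.07 on the mimic arrays, against 9.51 and 9.72 on the control arrays, a 1.32-fold increase (limma adjusted p = 0.0381). The PIK3C3 call was lost without mimic 1, mimic 2 or control 1 and with median scaling (limma adjusted p = 0.0685). It was also lost with no filter on dim probes and with the filter set at a detection p under 0.05. PIK3R4 (log2 fold change 0.29, limma adjusted p = 0.0591) and NRBF2 (-0.19, 0.143), listed with PIK3C3, were not called.

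The ULK1 complex is the kinase complex that starts autophagy when nutrients are scarce. Of the 6 members in its list, which also holds the kinase DAPK3, 1 rose (16.7%, beside 20.1% of all genes) and 0 fell (beside 17.8%). ULK1, the kinase of the complex, had log2 signals of 12.62 and 12.58 on the mimic arrays, against 12.34 and 12.18 on the control arrays. The groups did not overlap, and the increase was 1.26-fold (log2 fold change 0.34 ± 0.09, SE; limma adjusted p = 0.0375), with 0.37 on a second kept probe. The ULK1 call was lost without mimic 1, mimic 2 or control 2 (limma adjusted p of 0.111 to 0.154). RB1CC1 (FIP200), the scaffold of the complex, just missed the threshold. Its log2 signals were 10.69 and 10.66 on the mimic arrays, against 10.89 and 11.04 on the control arrays, with a log2 fold change of -0.29 ± 0.08 (SE; limma adjusted p = 0.0535), and 5 of the 15 alternative settings called it lower. The paralogous kinase ULK2 had -0.23, the adaptor ATG101 -0.12 and the adaptor ATG13, detected on 1 array of each group, -0.10. DAPK3, a death-associated protein kinase listed with them, had 0.20, and none of these 4 passed.

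Among the 8 proteins of lipid transfer and the early membrane, 2 rose (25%, beside 20.1% of all genes) and 1 fell (12.5%, beside 17.8%). WIPI2 reads phosphatidylinositol 3-phosphate and recruits ATG16L1. The WIPI2 log2 signals were 7.98 and 8.20 on the mimic arrays, against 7.13 and 7.41 on the control arrays. The value on control 1 was near the lowest signal detected on that array (6.83). Both mimic arrays were above both control arrays, and the log2 fold change was 0.82 ± 0.14 (SE; limma adjusted p = 0.012). It was smaller without background correction (0.45) and on the authors' processed values (0.47), as was that of ATG2B (0.27 and 0.28); BECN1 was then above WIPI2 (0.49 under both). The pair of ATG2 lipid transfer proteins, which bridge the endoplasmic reticulum and the growing membrane, moved in opposite directions. ATG2B had 8.0 and 8.07 on the mimic arrays, against 7.44 and 7.68 on the control arrays, an increase of 1.39-fold (limma adjusted p = 0.0267). ATG2A had 8.90 and 8.74 on the mimic arrays, against 9.19 and 9.25 on the control arrays, a decrease of 1.32-fold (limma adjusted p = 0.0254). Neither overlapped between groups, and the difference between the paralogues was not tested. Leaving out mimic 2 ended the call of WIPI2 (limma adjusted p = 0.0706), leaving out mimic 1, mimic 2 or control 1 ended that of ATG2B (0.066 to 0.133), and leaving out any 1 array ended that of ATG2A (0.0594 to 0.114).

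The remaining early membrane members were not called. ATG9A, the lipid scramblase of the seed vesicles, had a log2 fold change of 0.15, and VMP1, a scramblase of the endoplasmic reticulum, had 0.11. The phosphoinositide readers WIPI1 and WDR45 (WIPI4) had -0.16 and 0.26, and ZFYVE1 (DFCP1), which marks the omegasome, had -0.24. The 2 kept WDR45 probes gave opposite signs, 0.26 and -0.19, the second at a dim signal, so the direction of WDR45 is uncertain. VMP1 had mean log2 signals of 13.52 in mimic and 13.41 in control arrays, and its interval, -0.13 to 0.36, excluded a change as large as that of WIPI2.

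**Figure D3:**
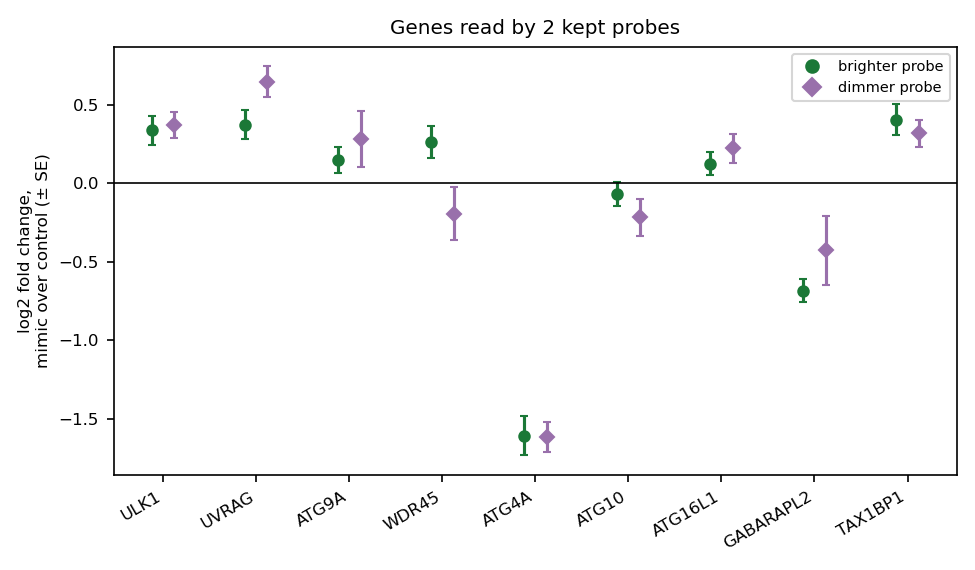
Log2 fold change, mimic over control, of the brighter and the dimmer kept probe of the 9 members read by 2 kept probes (points; bars are ± SE from the fit over probes, 2 arrays per group). The probes lie on the same side of 0 for every gene but WDR45, and those of ATG4A give -1.61 and -1.62.

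Of 6 measured cargo receptors and mitophagy proteins, from 8 listed, 3 rose (50%, beside 20.1% of all genes) and 0 fell (beside 17.8%). Cargo receptors on the list of other autophagy genes moved both ways. Of 14 measured there, 5 rose, 4 fell and 5 were not called, with a median log2 fold change of 0.08. CALCOCO2 (NDP52), a receptor for bacteria and damaged mitochondria, had an increase among the 3 largest as reported, whose order changed with the processing. ATG14 was above CALCOCO2 without background correction, on the authors' processed values and without mimic 2 or control 2. WIPI2 was above CALCOCO2 without mimic 1 or control 2, and barely so with median scaling (0.7909 against 0.7907). The CALCOCO2 log2 signals were 9.10 and 9.30 on the mimic arrays, against 8.31 and 8.41 on the control arrays. The groups were separated by several times their spread, and the log2 fold change was 0.84 ± 0.10 (SE; limma adjusted p = 0.00496). TAX1BP1, a paralogous receptor, had 12.76 and 12.84 on the mimic arrays, against 12.30 and 12.49 on the control arrays, an increase of 1.33-fold (limma adjusted p = 0.0306). A dimmer TAX1BP1 probe gave a log2 fold change of 0.32 (limma adjusted p = 0.0526 over probes). OPTN (optineurin), which acts with PINK1 in mitophagy, had 9.67 and 9.66 on the mimic arrays, against 9.23 and 9.40 on the control arrays, an increase of 1.27-fold (limma adjusted p = 0.0361). Without mimic 1, mimic 2 or control 1 the calls of TAX1BP1 (limma adjusted p of 0.0840 to 0.142) and OPTN (0.100 to 0.146) were lost.

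SQSTM1 (p62), the receptor for ubiquitinated aggregates, was not called. Its log2 signals were 15.01 and 15.04 on the mimic arrays, against 15.26 and 15.16 on the control arrays, without overlap. The log2 fold change was -0.18 with an interval of -0.38 to 0.02 (limma adjusted p = 0.123), and limma with a trended, robust variance called it lower. The mitochondrial kinase PINK1 and the mitochondrial receptor FUNDC1 had 0.06 and 0.05, and neither passed. NBR1, a second receptor for ubiquitinated cargo, and WDFY3 (ALFY), a scaffold for aggregates, were not measured because none of their probes met the detection filter.

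Of the 3 fusion proteins, 2 rose and 0 fell. STX17, the SNARE of the finished autophagosome, had log2 signals of 7.37 and 7.35 on the mimic arrays, against 7.07 and 7.11 on the control arrays. The control values of STX17 were near the lowest signals detected on those arrays (6.83 and 6.73). SNAP29, the SNARE that pairs with it, had 9.60 and 9.57 on the mimic arrays, against 9.27 and 9.35 on the control arrays. Both increases were 1.21-fold and near the threshold (limma adjusted p = 0.0353 for STX17 and 0.0434 for SNAP29). The calls were lost without any 1 of the 4 arrays (limma adjusted p of 0.0828 to 0.143 for STX17 and 0.0744 to 0.172 for SNAP29), and without background correction STX17 had a log2 fold change of 0.13 (limma adjusted p = 0.138), beside 0.28 as reported. EPG5, a tether at the lysosome, had 0.16 and was not called.

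TFE3, a transcription factor of the MiT family that acts on lysosomal and autophagy genes, had log2 signals of 9.27 and 9.16 on the mimic arrays, against 8.59 and 8.76 on the control arrays. All mimic values were above all control values, and the increase was 1.45-fold (log2 fold change 0.54 ± 0.10, SE; limma adjusted p = 0.0146). Its relative TFEB was not measured, since its probe did not meet the detection filter. TP53INP2, a nuclear protein that brings LC3 to the cytoplasm, had 8.0 and 7.99 on the mimic arrays, against 8.31 and 8.42 on the control arrays, a decrease of 1.29-fold (limma adjusted p = 0.0227). The TFE3 call was lost without mimic 1 or mimic 2 (limma adjusted p = 0.0883 and 0.0629), and the TP53INP2 call, whose log2 fold change was -0.23 without background correction beside -0.37 as reported, without mimic 1, mimic 2 or control 2 (0.0769 to 0.109).

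TFE3 binds the letters CACGTG, the palindromic E-box. The 300 bases around each gene's start (250 before and 50 after it, RefSeq, GRCh38.p14) were searched for CACGTG, which reads the same on both strands. Of 39 members with an entry, 3 held it (7.69%), beside 8.77% of 27305 genes with a promoter and 7.26% of 35116 promoters, and 8 members had no entry. The 3 were ATG14, ATG3 and SNAP29, which are among the 11 members with an entry that rose, while 0 of 8 that fell and 0 of 18 that were not called held it. The other autophagy genes did not divide this way, with the motif in 3 of 12 that rose, 1 of 7 that fell and 3 of 21 that were not called, and in 8 of 50 with an entry (16%). A match describes these letters only, and the share in the members was no higher than in other genes. Of the 15 alternative settings, ATG3 kept its call in 10 and SNAP29 in 6. Any part of TFE3 in these increases was not tested. The 3 promoters are printed 5′ to 3′ on the gene's strand, with CACGTG in capitals, because they show where the motif lies in members that rose. ATG14 (chr14:55411781-55412080, minus strand) held it 21 bases before the start, SNAP29 (chr22:20858757-20859056, plus strand) 184 bases before it, and ATG3 (chr3:112561913-112562212, minus strand) held it at 2 places, 18 bases before and 5 bases after the start.
ATG14: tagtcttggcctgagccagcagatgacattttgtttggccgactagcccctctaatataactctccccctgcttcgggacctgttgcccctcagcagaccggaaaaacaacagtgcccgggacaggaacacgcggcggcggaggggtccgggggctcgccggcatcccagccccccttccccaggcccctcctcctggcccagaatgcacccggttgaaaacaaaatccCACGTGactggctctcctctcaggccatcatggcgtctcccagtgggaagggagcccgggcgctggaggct
ATG3: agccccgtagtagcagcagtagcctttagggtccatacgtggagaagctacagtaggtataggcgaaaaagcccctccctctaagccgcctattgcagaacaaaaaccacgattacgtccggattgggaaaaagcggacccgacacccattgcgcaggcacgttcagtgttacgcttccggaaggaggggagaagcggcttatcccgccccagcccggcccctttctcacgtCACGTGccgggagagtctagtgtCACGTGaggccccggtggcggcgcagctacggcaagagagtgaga
SNAP29: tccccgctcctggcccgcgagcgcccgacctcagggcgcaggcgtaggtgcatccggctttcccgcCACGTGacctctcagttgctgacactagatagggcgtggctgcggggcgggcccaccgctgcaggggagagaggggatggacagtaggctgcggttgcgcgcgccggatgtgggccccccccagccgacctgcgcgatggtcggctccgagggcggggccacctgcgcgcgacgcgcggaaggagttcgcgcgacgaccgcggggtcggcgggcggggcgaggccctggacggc

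The calls differed in how they held across processing. Under 15 alternative settings, every called member kept its direction in 15 of 15, and ATG4A, MAP1LC3B, GABARAPL2 and CALCOCO2 kept their call in all 15. The log2 fold change of ATG4A lay between -1.77 and -1.06 over these settings and that of MAP1LC3B between -1.46 and -1.2, with the values nearest 0 obtained without background correction. STX17 lost its call in 11 settings, SNAP29 in 9 and ATG12 in 8, and these 3 were the called members with the smallest changes. Of the settings that leave out no array, median scaling and the absence of a filter on dim probes ended the most calls: 9 of the 21 called members kept theirs with no filter and 13 with median scaling, which ended those of ULK1, UVRAG, ATG3, OPTN, TAX1BP1, STX17, SNAP29 and ATG12.

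**Figure D4:**
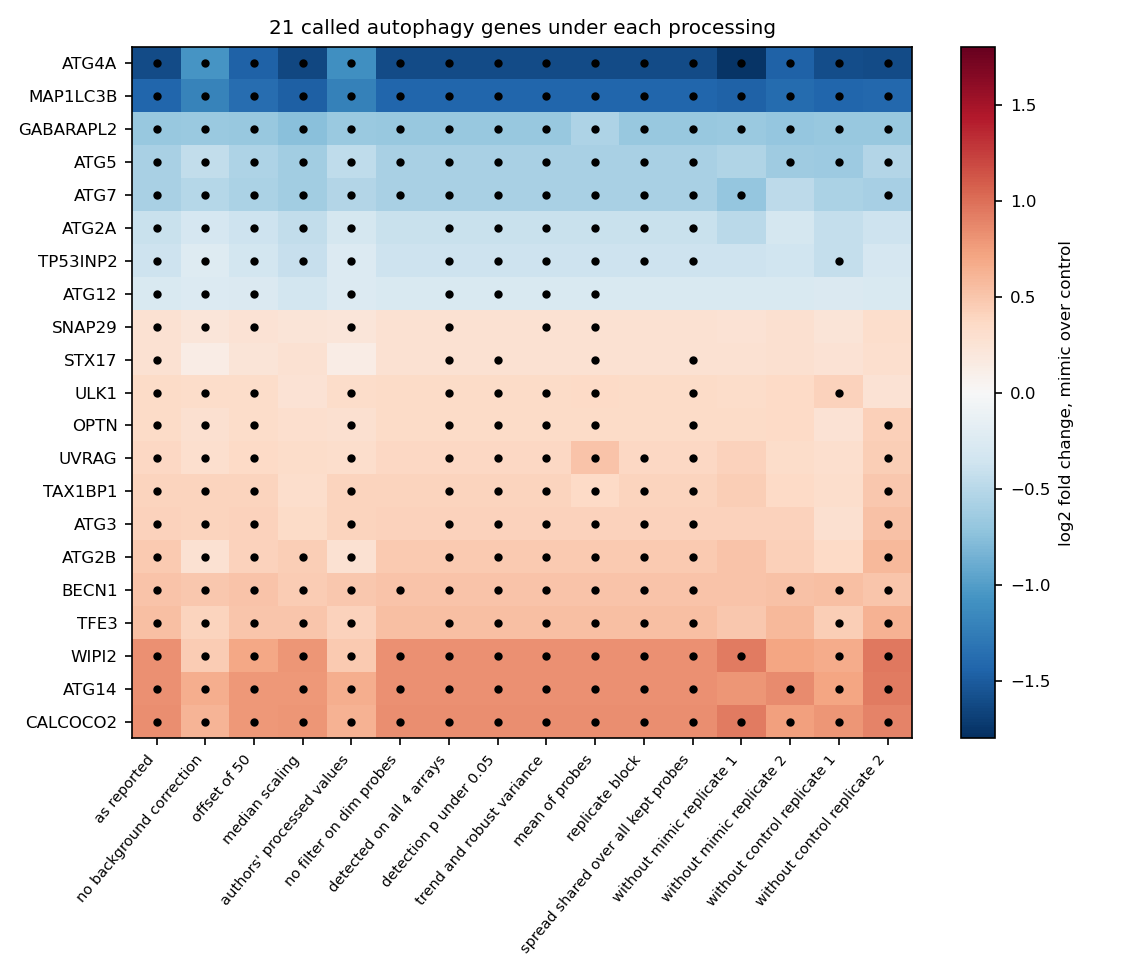
Log2 fold change, mimic over control, of the 21 called members (down the page) as reported and under 15 alternative settings (across), with a dot where the gene passed an adjusted p under 0.05. The sign stays the same in each line, and 4 genes (ATG4A, MAP1LC3B, GABARAPL2 and CALCOCO2) have a dot in every column.

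Autophagy genes outside the 47 moved both ways too. Of 59 further genes of the pathway, chosen with earlier results of these data known, 47 were measured, of which 16 rose (34.0%, beside 20.1% of all genes), 7 fell (14.9%, beside 17.8%) and 24 did not pass, with a median log2 fold change of 0.14 beside 0.040 over all genes. TMEM41B, a scramblase of the endoplasmic reticulum that works with VMP1, rose, with log2 signals of 12.52 and 12.41 on the mimic arrays, against 11.59 and 11.56 on the control arrays (1.85-fold, limma adjusted p = 0.00275). RRAGD, a Rag GTPase of the lysosome, rose 1.79-fold (limma adjusted p = 0.00373), and BCL2L13, a mitophagy receptor, rose 1.64-fold (0.00708). MTMR3, a phosphatase that removes the lipid made by the class III PI3-kinase, fell, with 10.11 and 10.01 on the mimic arrays, against 10.72 and 10.74 on the control arrays (1.6-fold, limma adjusted p = 0.0047). MTMR14, the other phosphatase listed with it, rose (log2 fold change 0.29, limma adjusted p = 0.0424). The mitophagy receptor BNIP3 fell 1.55-fold (limma adjusted p = 0.0096) and RAB7A, the GTPase of late endosomes and of fusion with the lysosome, fell 1.46-fold (0.00889). BNIP3L, listed with BNIP3, rose 1.42-fold (limma adjusted p = 0.00804). TMEM41B, RRAGD, BCL2L13, MTMR3, BNIP3 and RAB7A were picked for their size among called genes. None of these 6 overlapped between groups, and neither did 72.9% of all genes. The BNIP3 call was lost without mimic 1 and that of RAB7A without mimic 1 or mimic 2. TMEM41B, RRAGD, BCL2L13 and MTMR3 were called under all 15 alternatives.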

How the data were processed

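Per the labels' protocols, total RNA was amplified to biotinylated cRNA and read on bead arrays. The deposited table holds linear probe intensity, before any normalization, and a detection p-value for each; the submitters' processing notes name GenomeStudio 2009.2. The authors' deposited processed values are on a log2 scale and served as an alternative. Neither the steps behind them nor a slide or scan date is given in the sources used here.

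Intensities were processed with neqc of limma 3.58.1 in R 4.3.3, that is, background correction from the detection p-values, an offset of 16, quantile normalization and log2. Probes with a detection p under 0.01 on at least 2 of 4 arrays were kept. The platform annotation gave 1 gene name for 30113 probes, all matched to the RefSeq gene table, and the brightest kept probe stood for each gene. The 2 groups were set against each other with lmFit and eBayes and no covariate (2 residual and 2.65 prior degrees of freedom). Calls were made at a p under 0.05 after Benjamini-Hochberg adjustment over 10237 genes. Precision is limited by having 2 arrays per group.

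Members and lists were chosen with earlier results of these data known. Every called member is given with its array values. Of the other autophagy genes, the 3 called ones with the largest change in each direction are named. PIK3C3, PIK3R4, NRBF2, MTMR14 and BNIP3L are named beside them after their values were seen. The alternatives changed the background correction, offset, scaling, source of values, probe filter, variance model and probe averaging, added a replicate block, and left out each array in turn. Sharing the spread over all kept probes, and the alternatives for PIK3C3 and the genes picked by size, were added after seeing the data. Figures were drawn with matplotlib 3.10.9.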

Additional observations from a re-analysis of the deposited data

How the results depend on the processing

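The members called higher were 13 as reported, 6 with median scaling, 4 with no filter on dim probes and 2 to 10 with 1 array left out. Those called lower were 8 as reported, 5 with no filter and 4 to 5 with 1 array left out. For the other autophagy genes, 16 were called higher as reported, 10 with median scaling, 6 with no filter and 4 to 9 with 1 array left out, and 7 were called lower as reported, 4 with no filter and 1 to 5 with 1 array left out. Leaving out an array leaves a lone array that is assumed to vary like the other group, and no filter raised the genes tested to 20024; the cause of the other shifts was not tested. The arrays of both groups are numbered 1 and 2, but the deviations of mimic 1 and control 1 from their group means correlated at -0.057 across genes, so the numbers were not shown to pair the arrays. With a replicate block, 9 members were called higher and 7 lower, and 12 and 4 of the other autophagy genes. Sharing the spread over all kept probes, added after seeing the data, gave 12 and 7 members. Over all genes 37.9% were called as reported, 16.1% to 28.3% with 1 array left out and 11.4% with no filter. No reported direction reversed under any of the 15 alternatives for a called member. Members near the detection limit (ATG13, ATG4D and AMBRA1) had signals too dim for a firm value. The called members STX17 and WIPI2 were detected on all 4 arrays but were also dim in the controls. Their log2 signals there were 7.07 and 7.11 for STX17 and 7.13 and 7.41 for WIPI2. The lowest detected signal was 6.83 on control 1 and 6.73 on control 2.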
